A study of Canis lupus familiaris with 17 samples.

Results

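This report compares the 2 scent codes within 1 weight class of dogs. The study sequenced polyadenylated RNA of the olfactory epithelium from 17 domestic dogs (Canis lupus familiaris), and the labels give each dog a scent code of 0 or 1 without spelling out what the code means. The 9 dogs labelled Over_10 by weight were taken, 5 with scent code 1 and 4 with scent code 0. Scent code 1 held the beagle (Beagle, batch 3, age 4, 10.21 kg), the German shepherd (German_shepherd_1b, batch 4, age 11, 33.6 kg) and the basset hound (Basset_hound, batch 6, age 9, 22.67 kg). It also held both Labrador retrievers (Labrador_Retriever_1), the younger of age 0.5 and 20.4 kg in batch 5 and the older of age 6 and 44 kg in batch 6. Scent code 0 held the Doberman pinscher (Doberman_pinscher, batch 2, age 6, 32 kg), the cocker spaniel (Cocker_Spaniel, batch 2, age 9, 12.247 kg), the bulldog terrier (Bulldog_terrier, batch 3, age 3, 27.2 kg) and the English pointer (English_pointer, batch 6, age 14, 24.9 kg). The labels give no unit for age and no treatment. The code goes with breed: each breed occurs under 1 code only, so breed and scent code cannot be told apart here. The labels do not say what a batch is.

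The olfactory epithelium is the sheet of nasal tissue in which sensory neurons detect odours. Each mature neuron carries odorant receptors of mostly a single kind on its cilia, and the receptor genes form the largest gene family of the mammalian genome, spread in clusters over many chromosomes. Supporting cells and glands accompany the neurons, and basal stem cells renew the neurons through life. In bulk tissue, fewer neurons and less RNA per neuron cannot be told apart. The files used here do not pair the gene IDs with names, and 0 of the IDs matched the RefSeq gene table at hand. Cell type markers were therefore not looked up, and the labelled tissue was not checked against them.

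Library totals of the 9 dogs ran from 10536639 to 29240086 counts. The cocker spaniel, the beagle and the younger Labrador carry a mark as a first replicate in their library names, and the cocker spaniel and younger Labrador had the 2 highest totals (29240086 and 20809138). The top 10 features of the cocker spaniel took 19.8% of its counts, against 6.93% to 10.3% in the other 8 dogs. Its library also had the lowest normalization factor, 0.737 against 0.992 to 1.06. Between the codes, mean age was 6.10 ± 4.13 (SD, n = 5) in scent code 1 and 8.00 ± 4.69 (n = 4) in scent code 0 (two-sided exact permutation p = 0.603). Weight was 26.2 ± 13.0 kg and 24.1 ± 8.43 kg (exact permutation p = 0.825), and the RNA integrity number was 8.20 ± 0.54 and 8.08 ± 0.56 (exact permutation p = 0.778). The adjusted p over the 6 such comparisons was 0.873 for each.

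The first question was whether any transcript went with the scent code. Of 16018 features with enough counts, 0 passed edgeR's quasi-likelihood test after Benjamini-Hochberg adjustment (0% called, smallest adjusted p = 0.669). DESeq2, which tested a larger set, called 2 features (0.00765% of 26147 with an adjusted p), 1 higher and 1 lower in scent code 1. At an unadjusted p under 0.05 edgeR had 1034 features (6.46%), namely 458 higher (2.86%) and 576 lower (3.60%) in scent code 1. The median fitted log2 difference of the 458 was 0.77, and 150 of them differed by over 2-fold. For the 576 it was -0.69, with 134 over 2-fold. On the deposited log2 values limma called 0 and had 649 at an unadjusted p under 0.05. Over all features the median was 0.00, with 49.4% below 0. The number at an unadjusted p under 0.05 ranged from 595 without the basset hound to 1462 without the Doberman pinscher. The biological coefficient of variation between these dogs was 0.369.

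For 131 features every scent code 1 dog lay above every scent code 0 dog (0.818% of those tested), and for 226 every one lay below (1.41%). The median fitted differences were 0.52 and -0.54 log2 units. Over 2-fold differences were found for 20 of the 131 and 17 of the 226. If the codes were dealt to these 9 dogs at random, a feature would separate in either direction with a probability of 0.0159. Shared evenly between the directions, that rate is close to the share of the 131 and below that of the 226. The 131 are thus about as many as random codes would give. Whether the 226 exceed chance was not tested.

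**Figure D1:**
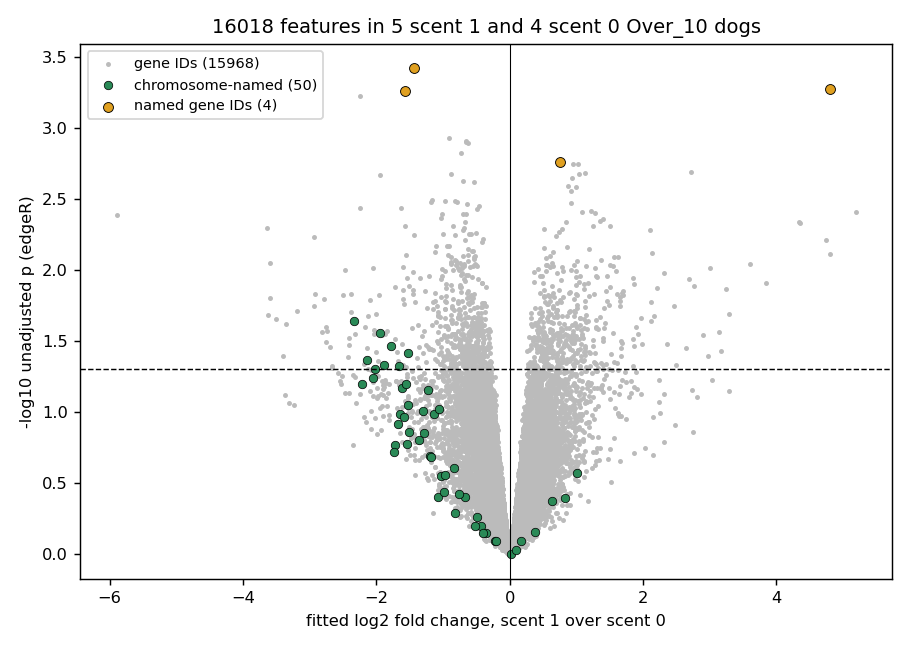
Fitted log2 fold change (scent code 1 over scent code 0, x axis) against -log10 of edgeR's unadjusted p (y axis) for each of the 16018 features, with the unadjusted threshold as a dashed line. The 50 chromosome-named features, in green, lie mostly left of 0, and none of the points passed the adjustment.

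Batches 3 and 6 held both codes, with the beagle against the bulldog terrier in batch 3 and the basset hound and older Labrador against the English pointer in batch 6. Over all tested features the directions in these 2 batches had little in common. Of the 16018, 3983 were higher in scent code 1 in both batches, 3853 were lower in both, and 8182 (51.1%) went opposite ways. Of the 458 features that were higher at an unadjusted p under 0.05, 425 were higher in batch 3 and 433 in batch 6. Of the 576 lower ones, 508 were lower in batch 3 and 545 in batch 6. These 5 dogs were among the 9 that picked the features, so the shares are high by construction. With batch in the model, which leaves 3 residual degrees of freedom, edgeR called 0 features and 294 had an unadjusted p under 0.05.

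The dogs did not sort by code in their whole profiles. The first 4 principal components held 25.8%, 20.6%, 16.6% and 9.91% of the variance. None passed the test between codes (exact permutation p of 0.302, 0.302, 0.698 and 0.254, adjusted p from 0.402 to 0.698). The cocker spaniel scored 94.8 on the first component, and the other 8 dogs lay between -28.9 and 7.83. The closest pair of all 36 was a pair across codes, the beagle and the bulldog terrier of batch 3, at a root mean square distance of 0.422 log2 units. The next 2 pairs were also across codes, the older Labrador with the bulldog terrier (0.431) and with the Doberman pinscher (0.431). The 2 Labradors, 1 breed in batches 5 and 6, were 0.640 apart and ranked 24 of 36. The median distance was 0.554 within scent code 1 (10 pairs), 0.674 within scent code 0 (6 pairs) and 0.585 between codes (20 pairs). The 8 pairs with the cocker spaniel were the 8 most distant.

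The 4 gene IDs given here dog by dog had the smallest p, 2 on each side. They were chosen for their difference in these dogs, so their levels are a description. ENSCAFG00000019757 had 28.9 CPM (counts scaled to the TMM-adjusted library total) in the beagle, 43.7 in the German shepherd, 32.0 in the basset hound and 20.6 in the older Labrador. The younger Labrador, also of scent code 1, had 0.906 CPM. The 4 scent code 0 dogs had 0.735 (Doberman pinscher), 1.81 (cocker spaniel), 0.358 (bulldog terrier) and 0.446 CPM (English pointer). So 4 of the 5 scent code 1 dogs stood far above all the others, and the dog of age 0.5 was among the low ones. In reads, the 4 high dogs had 259 to 494 and the other 5 dogs 4 to 39. The group means were 25.2 ± 15.9 CPM (SD, n = 5) and 0.838 ± 0.670 CPM (n = 4), and the fitted log2 difference was 4.80 ± 0.96 (SE). It did not pass edgeR's test with all 9 dogs (adjusted p = 0.669). Without the younger Labrador the difference was 5.11 (edgeR adjusted p = 0.0472), and without both that dog and the cocker spaniel it was 5.89 (edgeR adjusted p = 0.0130). The younger Labrador was the low dog of scent code 1 and the cocker spaniel the highest of scent code 0. Leaving them out widens the difference by construction, so these fits are a description and add no support. Without the cocker spaniel alone the edgeR adjusted p was 0.861. DESeq2 called this ID with all 9 dogs (log2 difference 4.85, adjusted p = 1.68e-05). Over its 22 alternatives the log2 difference ran from 3.26 to 6.05 and the adjusted p from 1.68e-05 to 0.979. Within batch 3 the difference in log2(CPM + 0.5) was 5.10, and within batch 6 it was 4.79.

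ENSCAFG00000016405 was the other higher ID, at 65.7 CPM in the beagle, 72.3 in the German shepherd, 94.5 in the younger Labrador, 66.2 in the basset hound and 66.3 in the older Labrador. The scent code 0 dogs had 48.3 (Doberman pinscher), 33.7 (cocker spaniel), 38.3 (bulldog terrier) and 53.0 CPM (English pointer). The groups did not overlap. The fitted log2 difference was 0.75 ± 0.18 (SE, edgeR adjusted p = 0.669), with 0.77 in batch 3 and 0.32 in batch 6.

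Of the 2 lower IDs, ENSCAFG00000038881 lay between 0.620 and 1.14 CPM in the 5 scent code 1 dogs and between 2.09 and 2.68 CPM in the 4 scent code 0 dogs. These are 7 to 19 and 27 to 45 reads. The groups did not overlap, at a log2 difference of -1.44 ± 0.28 (SE, edgeR adjusted p = 0.669), with -0.83 in batch 3 and -1.18 in batch 6. ENSCAFG00000038089 had 1.89 CPM in the beagle, 1.15 in the German shepherd, 2.31 in the younger Labrador, 1.64 in the basset hound and 2.78 in the older Labrador. The scent code 0 dogs had 4.16 (Doberman pinscher), 5.07 (cocker spaniel), 6.80 (bulldog terrier) and 7.31 CPM (English pointer). Again the groups did not overlap, and DESeq2 called this ID as its only lower feature (log2 difference -1.57, adjusted p = 0.0140). In edgeR the log2 difference was -1.57 ± 0.32 (SE, adjusted p = 0.669). Over all alternatives the adjusted p ran from that DESeq2 value to 1.00, and the lowest from edgeR was 0.532, without the Doberman pinscher. Within batches it was -1.61 and -1.56.

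The 8 dogs labelled Below_10 took no part in choosing these IDs. They comprise 2 dachshunds of scent code 1, labelled Dachsund (batch 1, age 8, 9.5 kg) and Dachshund (batch 4, age 4, 9.07 kg), and 6 dogs of scent code 0. These 6 were the Pomeranian (batch 1, age 6), the Jack_Russel_Terrier (batch 2, age 14), the Miniature_Schnauzer (batch 2, age 12), the Chinese_Crested (batch 3, age 5), the Poodle (batch 6, age 5) and the rat_terrier (batch 6, age 10), of 5 to 9.79 kg. On a scaling common to all 17 dogs, the dachshunds had 3.17 (batch 1) and 1.36 CPM (batch 4) of ENSCAFG00000019757, and the 6 others 0.157 to 5.40 CPM. The high level of 4 Over_10 scent code 1 dogs, 19.7 to 42.0 CPM on this scaling, was thus not seen in any Below_10 dog. For ENSCAFG00000016405 the dachshunds had 43.6 and 138 CPM and the others 41.3 to 146 CPM. For ENSCAFG00000038881 they had 5.79 and 1.63 CPM, with 0 to 2.37 CPM in the others, so the batch 1 dachshund lay above rather than below. For ENSCAFG00000038089 they had 3.05 and 1.97 CPM, within the 0.845 to 10.5 CPM of the others. With 2 dogs against 6, no two-sided exact permutation test could pass (smallest possible p = 0.0714).

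**Figure D2:**
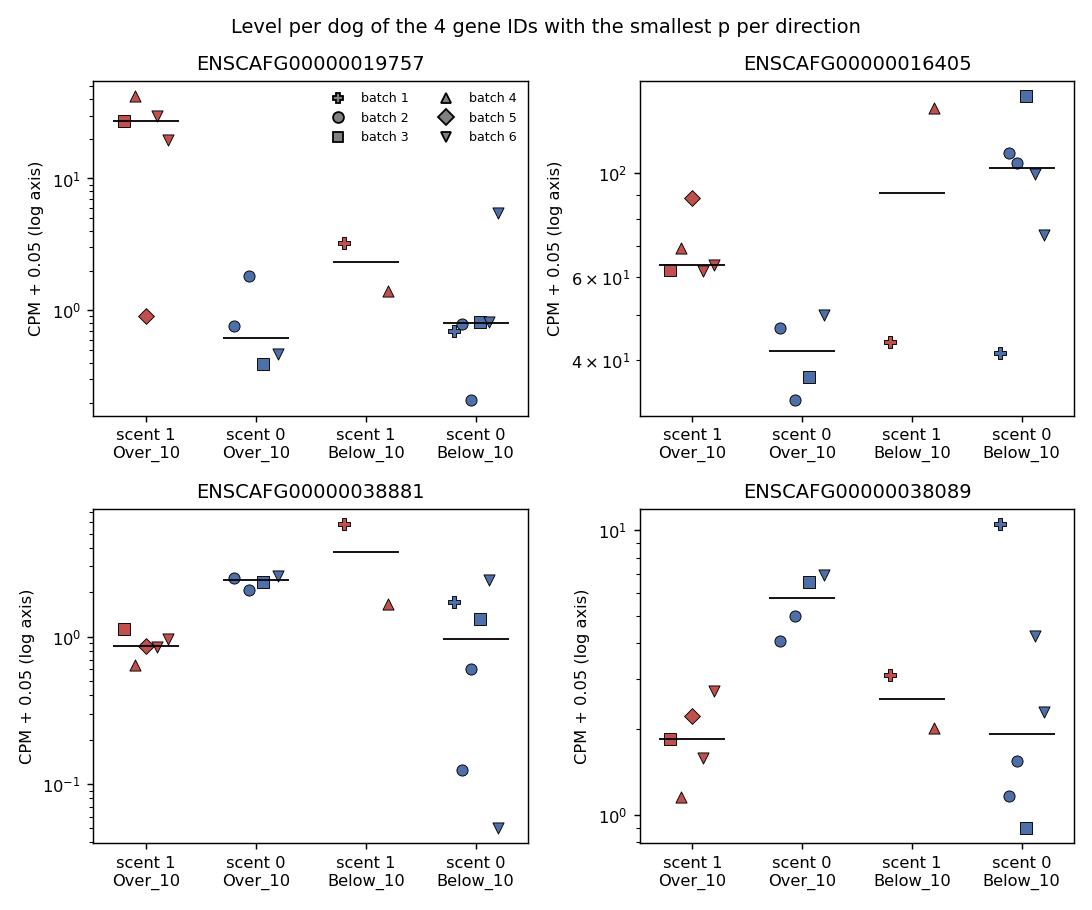
CPM + 0.05 (log axis, scaling common to all 17 dogs) of 4 gene IDs in each dog, by scent code and weight class, with lines at group medians and symbols for batches. For ENSCAFG00000019757, 4 of the 5 scent 1 Over_10 dogs lie between 19.7 and 42.0 CPM, above all other dogs, and the younger Labrador of batch 5 lies at 0.851 CPM.

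Whether the scent difference itself differed between weight classes was tested in all 17 dogs with batch in the model. Of 17940 features, 0 passed edgeR's interaction test (0% called, smallest adjusted p = 0.822), and 985 had an unadjusted p under 0.05 (5.49%). DESeq2 called 13 of 27421 features, after 61 fitted beyond 10 log2 units either way were left out. That limit was set after seeing the data, and more features were called with the 61 kept. The interaction for ENSCAFG00000019757 was 4.12 ± 1.68 log2 units (SE, edgeR adjusted p = 0.822).

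The 2 dachshunds went opposite ways over the features picked in the Over_10 dogs. Of the 458 higher features, 369 (80.6%) were also higher in the batch 4 dachshund than in the mean of the 6 scent code 0 Below_10 dogs, against 53.3% of all features. In the batch 1 dachshund 44 (9.61%) were higher, against 49.6% of all features. Of the 576 lower features, 445 (77.3%) were lower in the batch 4 dachshund and 43 (7.47%) in the batch 1 dachshund, against 46.7% and 50.4% of all features. Both are set against the same 6 dogs. The batch 1 dachshund had the lowest normalization factor of the 17 libraries, 0.519 in the fit of all dogs, ahead of the Pomeranian of its batch (0.731) and the cocker spaniel (0.758), and the batch 4 dachshund had the highest, 1.14. Its RNA integrity number, 5.9, was the lowest of the 17 dogs, against 8.5 in the batch 4 dachshund and 7.4 to 9.1 in all dogs but itself. The batch 4 dachshund shared its batch with the German shepherd, a scent code 1 dog among those that picked the features. None of the 6 reference dogs was of batch 4. The part of batch, RNA quality and library composition in these shares was not tested.

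Another 208 features of the count table carry a chromosome and a serial number as their name in place of a gene ID. What they are is not stated in the sources used here. Most sit on chromosomes 18 (45), 21 (44), 20 (16), 14 (13), 5 (12) and 27 (10), all of which carry olfactory receptor symbols in the RefSeq gene table of assembly UU_Cfam_GSD_1.0 (38 to 198 each). The names give no position, so a shared chromosome does not identify the features as receptors. If they are near-identical members of a gene family, they can share reads, and the level of a single such feature is then uncertain.

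Their summed level was 314 CPM in the beagle, 266 in the younger Labrador, 179 in the German shepherd, 116 in the older Labrador and 46.6 in the basset hound. In scent code 0 it was 792 CPM in the cocker spaniel, 286 in the English pointer, 191 in the bulldog terrier and 83.2 in the Doberman pinscher. Apart from the cocker spaniel at the top and the basset hound at the bottom, the codes were interleaved. On the log2 scale the means were 7.25 ± 1.10 (SD, n = 5) and 7.94 ± 1.35 (n = 4), a difference of -0.69 within either SD (two-sided exact permutation p = 0.429, adjusted p = 0.857). Without the cocker spaniel it was -0.12 (exact permutation p = 0.893), without the basset hound -0.26 (p = 0.771) and without the Doberman pinscher -1.21 (p = 0.214). Leaving out the older or the younger Labrador, or any other dog, kept it between -0.95 and -0.59. The 2 batches with both codes went opposite ways, at 0.72 log2 units in batch 3 and -1.96 in batch 6. On the scaling of all 17 dogs the Below_10 dachshunds had 1677 CPM (batch 1) and 282 CPM (batch 4), and the 6 other Below_10 dogs 172 to 1273 CPM.

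The number of these features detected (at least 5 reads after thinning each library to 10536639 counts) was 62 in the beagle, 55 in the German shepherd, 134 in the younger Labrador, 31 in the basset hound and 51 in the older Labrador. In scent code 0 it was 32 in the Doberman pinscher, 124 in the cocker spaniel, 56 in the bulldog terrier and 64 in the English pointer. Each code thus held 1 dog far above the rest. The means, 66.6 ± 39.4 (SD, n = 5) and 69.0 ± 39.1 (n = 4), lay far closer together than the dogs within a code (exact permutation p = 0.952, adjusted p = 0.952). The difference, -2.40, was 15.9 without the cocker spaniel and -19.25 without the younger Labrador, and -0.917 without both. It also turned positive, by up to 6.50, without the German shepherd, the basset hound or the older Labrador. It was 6 in batch 3 and -23 in batch 6.

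**Figure D3:**
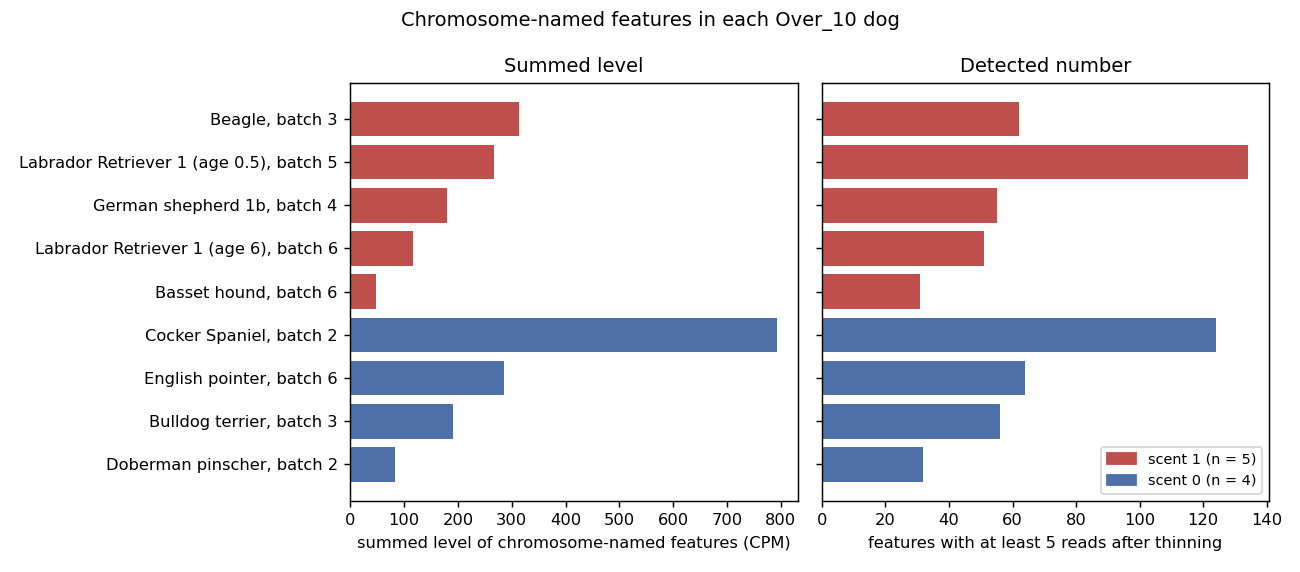
Summed level (CPM, left) and detected number (right) of the 208 chromosome-named features in each of the 9 Over_10 dogs, red for scent 1 and blue for scent 0. The cocker spaniel has the highest level, 792 CPM, and the younger Labrador the highest detected number, 134.

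Taken feature by feature, 11 of the 208 were detected in all 9 dogs and 42 in none. A further 120 were detected in at least 1 dog of both codes, counting those 11. Of the rest, 37 were detected in scent code 1 dogs only and 9 in scent code 0 dogs only. Nearly all of these came from 1 dog: 36 of the 37 were detected in the younger Labrador alone, and 7 of the 9 in the cocker spaniel alone. No feature was detected in every dog of one code and in no dog of the other.

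By chromosome the codes differed in no total. Chromosome 14 had the largest difference, at 42.6 CPM in the beagle, 18.1 in the younger Labrador and 4.68 in the basset hound, with the German shepherd and the older Labrador between the beagle and the younger Labrador. The scent code 0 dogs had 16.2 (Doberman pinscher), 119 (cocker spaniel), 34.4 (bulldog terrier) and 58.0 CPM (English pointer). The groups overlapped, and the difference in log2(CPM + 0.5) was -1.28 (exact permutation p = 0.159, adjusted p = 0.619 over the 6 chromosomes). Chromosome 27 followed with -1.12 (means of 8.10 ± 7.08 and 17.7 ± 12.8 CPM, SD, exact permutation p = 0.206, adjusted p = 0.619). Chromosome 18, with the most features, differed by -0.98 (68.1 ± 57.7 and 124 ± 111 CPM, exact permutation p = 0.333, adjusted p = 0.667).

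In each of these 3 chromosomes batch 3 went up and batch 6 went down in scent code 1, by 0.30 and -2.47 for chromosome 14, 0.91 and -3.26 for chromosome 27, and 1.03 and -2.34 for chromosome 18. Without the cocker spaniel the differences were -0.81, -0.76 and -0.44 in that order. Without the basset hound they were -0.82, -0.75 and -0.42. The cocker spaniel was the highest dog and the basset hound the lowest on each of the 3.

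Chromosomes 21, 20 and 5 differed the other way or hardly at all, by 0.57, 0.02 and 0.09 log2 units (exact permutation p of 0.603, 1.00 and 0.746, adjusted p of 0.895, 1.00 and 0.895). On chromosome 5 the younger Labrador had 22.3 CPM and the cocker spaniel 18.2 CPM, and the other 7 dogs 0.303 to 1.33 CPM. The same 2 dogs led on chromosome 21 with 60.6 and 40.9 CPM, the beagle had 12.0 CPM and the other 6 dogs 1.71 to 5.24 CPM. Since 1 of the 2 high dogs had each code, this split did not follow the scent code. Without both dogs the differences on chromosomes 21, 20 and 5 were 0.80, 0.49 and 0.31 (exact permutation p of 0.229, 0.571 and 0.514). The sign was not stable for single dogs either. Chromosome 21 turned to -0.10 without the younger Labrador. Chromosome 20 turned negative without the Doberman pinscher (-0.64), the German shepherd (-0.11), the beagle (-0.09) or the younger Labrador (-0.04). Chromosome 5 turned negative without the younger Labrador (-0.76), the Doberman pinscher (-0.34), the English pointer (-0.27) or the bulldog terrier (-0.19).

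**Figure D4:**
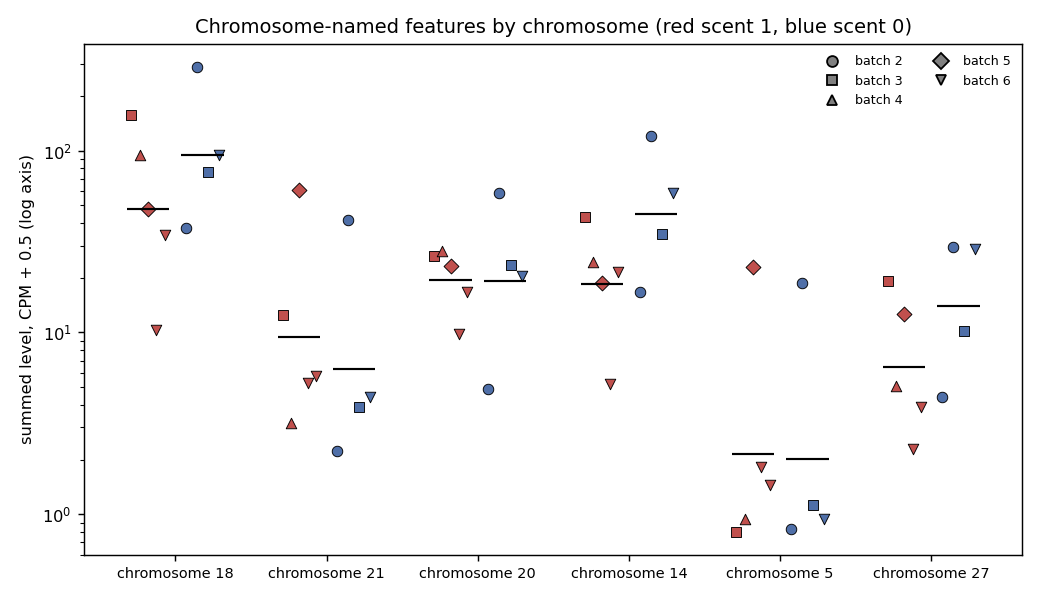
Summed level of the chromosome-named features, CPM + 0.5 on a log axis, for the 6 chromosomes with at least 10 such features in 5 scent 1 (red) and 4 scent 0 (blue) dogs, with lines at the means of the log values. On chromosome 5 the younger Labrador (22.3 CPM) and the cocker spaniel (18.2 CPM) lie above 7 dogs at 0.303 to 1.33 CPM.

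Only 50 of the 208 features had enough counts for the test of single features. Of these, 43 had a fitted value below 0 in scent code 1, with a median log2 difference of -1.19, where all 16018 features had 49.4% below 0 and a median of 0.00. None was called by edgeR, against 0% of all features. At an unadjusted p under 0.05, 8 of 50 were lower, against 3.60% of all features, and 0 were higher. With age or with batch as a covariate 0 were lower at that threshold, while 44 and 41 of the 50 lay below 0. The lean was weaker without the low-count filter. Then 115 of 199 such features lay below 0 (median -0.32), against 13140 of all 26545 features. At an unadjusted p under 0.05, 9 of the 199 were then lower and 3 higher, against 830 and 653 of all. Another wider set came from the fit of all 17 dogs with batch, whose filter also used the Below_10 dogs. There 140 of 154 such features lay below 0 (median -1.58), against 9671 of all 17940 features. At an unadjusted p under 0.05, 9 of the 154 were lower and 0 higher, against 302 and 203 of all. For none of the 50 did the 2 codes separate without overlap, against 0.818% higher and 1.41% lower of all features.

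The lean toward lower values moved with single dogs. The cocker spaniel was the highest of the 9 dogs for 32 of the 50 features and the basset hound the lowest for 27. Without the cocker spaniel 35 of the 50 lay below 0, with a median of -0.54 and 0 at an unadjusted p under 0.05. Without both the cocker spaniel and the younger Labrador it was 34 of the 49 that could still be tested, with a median of -0.42. Without the Doberman pinscher, which was lowest for 17, 45 of 50 lay below 0 with a median of -1.56 and 20 at an unadjusted p under 0.05. Without the beagle it was 43 of 46 with a median of -1.78. Within batch 3 the direction was the opposite: 36 of the 50 were higher and 14 lower in the beagle than in the bulldog terrier. Within batch 6, 46 were lower in the scent code 1 dogs and 4 higher. In all 34 of the 50 went opposite ways in the 2 batches, against 51.1% of all features.

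**Figure D5:**
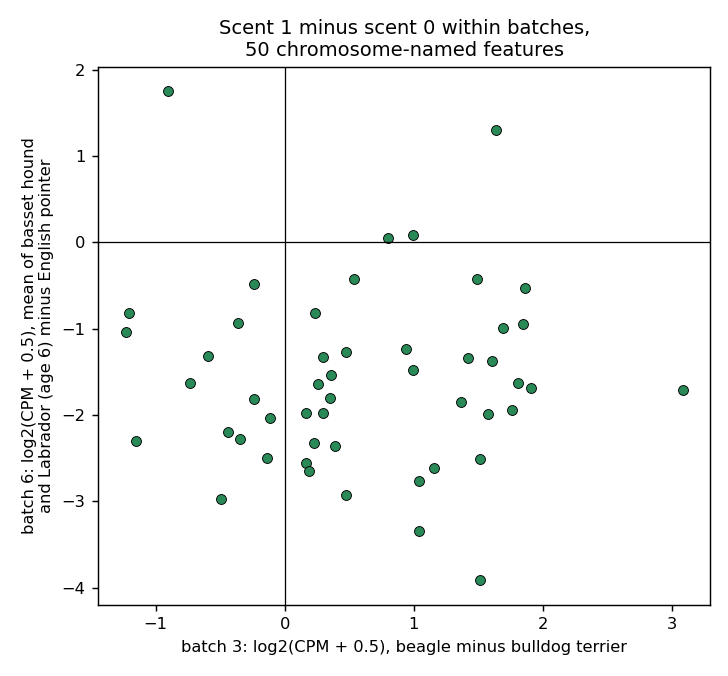
Difference in log2(CPM + 0.5), scent code 1 minus scent code 0, within batch 3 (x axis, 1 dog each) and within batch 6 (y axis, 2 dogs against 1) for the 50 tested chromosome-named features. Most points lie right of 0 and below 0: 36 are higher in batch 3 and 46 are lower in batch 6.

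The 8 features with the highest mean CPM, which is not scaled to length, showed the same mix of dogs. The feature chr18_126 had 35.1 CPM in the beagle, 15.8 in the German shepherd, 5.71 in the younger Labrador, 0.702 in the basset hound and 2.46 in the older Labrador. In scent code 0 it had 9.14 (Doberman pinscher), 52.6 (cocker spaniel), 16.8 (bulldog terrier) and 18.6 CPM (English pointer). The groups overlapped from 9.14 to 35.1 CPM, where the beagle and the German shepherd lay among the scent code 0 dogs. Both Labradors and the basset hound lay below every scent code 0 dog. The log2 difference was -1.03 ± 0.90 (SE, edgeR adjusted p = 0.736), with 1.04 in batch 3 and -3.34 in batch 6.

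Next came chr14_31, at 2.81 to 12.7 CPM in scent code 1 and 5.96 to 54.9 CPM in scent code 0, a log2 difference of -1.53 ± 0.64 (SE, edgeR adjusted p = 0.669). It was also among the 4 lower features with the smallest p. The feature chr18_169 ranged from 1.33 to 11.5 and from 2.20 to 54.3 CPM (log2 difference -1.89 ± 0.84, edgeR adjusted p = 0.669), and chr18_121 from 0.858 to 7.42 and from 1.71 to 30.1 CPM (-1.67 ± 0.74, edgeR adjusted p = 0.669). In all 3 the cocker spaniel gave the top value and the basset hound the lowest. Both codes also overlapped for chr14_40 (log2 difference -1.14), chr18_128 (-0.43), chr20_5 (-0.22) and chr18_140 (0.39). The highest dog was the German shepherd for chr20_5, at 19.0 CPM, and the beagle for chr18_140, at 28.6 CPM, both of scent code 1.

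Among the lower features with the smallest p, chr15_12 and chr15_13 neighbour each other by name on chromosome 15. For chr15_12 the cocker spaniel had 12.9 and the English pointer 11.2 CPM, whereas the bulldog terrier had 1.88 and the Doberman pinscher 0.163 CPM. The scent code 1 dogs had 0.620 to 2.03 CPM, so 2 of the 4 scent code 0 dogs stood above them and 1 stood below. The log2 difference was -2.34 ± 0.87 (SE, edgeR adjusted p = 0.669). For chr15_13 the same 2 dogs led with 9.44 and 7.23 CPM, and the scent code 1 dogs had 0.362 to 2.70 CPM (log2 difference -1.94 ± 0.76, edgeR adjusted p = 0.669). The last of the 4, chr20_7, had 10.8 CPM in the cocker spaniel and 0.408 to 2.87 CPM in the other 8 dogs.

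On the higher side no p was below 0.266. The feature chr21_176 had 8.86 CPM in the beagle and 0.178 to 2.51 CPM in the other 8 dogs (log2 difference 1.01 ± 0.86, SE, edgeR adjusted p = 0.729). For chr20_46 the levels were 0.530 to 3.97 CPM in scent code 1 and up to 2.59 CPM in scent code 0 (log2 difference 0.82). The Doberman pinscher had 0 reads of chr20_46, which allows up to 0.245 CPM (3 counts, counting error only). For chr18_166 the beagle again stood highest, at 15.1 CPM, with 1.33 to 6.46 CPM in the others.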

How the data were processed

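Whole-number counts per feature, without normalization, were deposited by the authors for 32912 features (32704 Ensembl-style IDs and 208 named for a chromosome) in 17 dogs. The authors also deposited log2 values of 16917 features, named as having a batch effect taken out. The submitters' processing notes name DESeq2, limma, edgeR, HTSeq, STAR 2.5.3 and Trim Galore 0.3.1 with no order. Annotation and genome build were not given in the sources used here. Of the IDs, 0 matched the RefSeq table, so the planned marker lists were not run.

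For the 9 Over_10 dogs, features were kept by filterByExpr (minimum count 10), which left 16018. They were scaled by TMM and tested with edgeR 4.0.16 (R 4.3.3, robust quasi-likelihood F-test, scent code alone, 7 residual degrees of freedom), called at an adjusted p of 0.05 and tested on simulated data. DESeq2 1.42.0 and limma 3.58.1 served as alternatives. Single values were compared by two-sided exact permutation over all splits of the 9 dogs (scipy 1.17.1, smallest possible p 0.0159). Levels by chromosome received 0.5 CPM before the log. Totals of 10536639 to 29240086 counts set the precision of low features. Per the labels' protocols 4 samples of the series were extracted in 2 batches, without naming them. P-values measure the spread between these 9 samples, 1 per dog. Named features were the 2 IDs with the smallest p per direction, the 8 chromosome-named features with the highest mean, and the 4 with the smallest p per direction. The comparison, lists and rules were chosen with earlier results of these data known.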

Additional observations from a re-analysis of the deposited data

Results flagged for a closer look

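In 56 groups of 4 or 5 dogs, 7 values lay apart from the rest of their group by a gap that chance exceeds in about 1 of 20 groups. All 7 belong to the 2 dogs with the highest library totals.

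In scent code 1 the younger Labrador stood apart in its library total (20809138 counts), in its chromosome 5 level (22.3 CPM), in ENSCAFG00000016405 (94.5 CPM, above the others) and in ENSCAFG00000019757 (0.906 CPM, below the others). In scent code 0 the cocker spaniel stood apart in its library total (29240086 counts), in the share of its 10 most abundant features (19.8%) and in its chromosome 5 level (18.2 CPM). Levels were compared on a log scale.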

How the results depend on the processing

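With edgeR, 0 features were called between scent codes under each other scaling, filter, batch or covariate setting, and with limma on the deposited log2 values. The exceptions were DESeq2, which called 2, the fit without the cocker spaniel and the younger Labrador, chosen after seeing the data, which called 1, and leaving out 1 dog, which gave 0 to 1 (the call without the younger Labrador). The interaction with weight class had 0 calls under each setting, 0 to 0 with 1 dog left out, apart from 13 with DESeq2. That DESeq2 count leaves out 61 features fitted beyond 10 log2 units either way, a limit set after seeing that their p-values were numerically unstable, and more features were called with them kept. The difference in the detected number, -2.40, was 10.4 when 1 read sufficed and ran from -19.25 to 15.9 with 1 dog left out. For chromosome 20 the difference of 0.02 was -0.25 within batches and -0.019 with 2 CPM added. With 1 dog left out chromosomes 20, 21 and 5 ran from -0.64 to 0.55, from -0.10 to 1.48 and from -0.76 to 1.16. Chromosomes 18, 14 and 27 and the summed level kept their sign in each setting run, although batch 3 alone went the other way.

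Of the log2 differences of named features, chr20_5 turned to 0.39 without the 3 first-replicate libraries and to 0.61 without the cocker spaniel and younger Labrador (-0.82 to 0.33 with 1 dog left out). Without the 3 first-replicate libraries chr18_140 was -0.030 and chr21_176 -0.056, and in the deposited log2 values chr18_140 was -0.36 (-0.74 to 0.94 with 1 dog left out). Without the cocker spaniel and younger Labrador chr18_128 was 0.38, and in batches 3 and 6 without a batch term 0.22 (-1.33 to 0.14 with 1 dog left out). With batch as a covariate, in batches 3 and 6 only, and in all 17 dogs chr18_166 was -0.17, -0.15 and -0.21 (-0.11 to 0.99 with 1 dog left out). The cause of these turns was not tested. Low features carry few reads: a level of 1 CPM is 11 to 22 reads here. No paired analysis was possible because the labels hold no replicate numbers that pair dogs across the codes.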
